A study of Mus musculus with 12 samples.

Results

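Krüppel-like factors are zinc-finger proteins that bind CACCC and GC-rich boxes in promoters, and several of them hold lymphocytes in a resting state or set which homing receptors they carry. TGF-beta is a cytokine stored in latent form in bone marrow; its dimer brings the receptor kinases Tgfbr2 and Tgfbr1 together, Tgfbr1 phosphorylates Smad2 and Smad3, and these enter the nucleus with Smad4. Smad7 is induced by the pathway and blocks it, and in B-lineage cells TGF-beta is known for restraining growth and for switching to IgA. The genes described are the Krüppel-like factors Klf2, Klf3, Klf4, Klf6 and Klf13, the ligand Tgfb1, the receptors Tgfbr1 and Tgfbr2, and the signal transducers Smad3 and Smad7. They were taken by symbol, whatever their values, and all 10 were found among the 14219 genes of the table of all genes.

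Plasma cells from bone marrow were sequenced as bulk RNA from BLTcre.mcl1fl/+ mice of the C57BL/6 strain, with 3 libraries in each of 4 groups. All groups carried the same genotype, with a cre and a conditional allele of Mcl1, a survival factor of plasma cells, on 1 of the chromosome pair, and all mice had received tamoxifen, so no group is free of either. Tamoxifen turned on a human CD4 reporter. Cells with it on their surface are called marked (human CD4+) and cells without it unmarked (human CD4-), and each was taken at day 60 and at day 270 after treatment. The cre may also have acted on the conditional Mcl1 allele in marked cells. Marking therefore cannot be told apart from loss of 1 Mcl1 copy, and this was not tested. The labels do not state which promoter drives the cre, what share of cells tamoxifen marked, how old the mice were or whether a library pooled animals. Nothing in the labels says that replicates came from separate animals, so p-values measure the spread between these libraries. The plasma cell surface protein gene Sdc1 stood at 1748 to 2342 CPM (reads after scaling each library to an equal sum) in the 12 libraries. Libraries held 7449468 to 15943547 reads, 7.90% to 31.3% of them on Jchain, and the number of genes with at least 1 read was lowest in marked libraries 2 and 3 of day 270 (11022 and 11301). Summed CPM of 7 erythroid marker genes was higher in the marked than in the unmarked library of all 6 pairs with the same specimen number, at 107 to 346 against 37.3 to 62.9 at day 60 and 180 to 788 against 28.5 to 166 at day 270; the part of such cells in the differences between marked and unmarked cells was not tested. In bulk samples, fewer cells that express a gene and less RNA of it per cell cannot be told apart.

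The promoters of Klf2, Klf13, Smad3 and Tgfbr2 are shown because these genes had the lowest p-values among the 10. Each run is the 250 bases before the RefSeq start of the gene (GRCm38.p6), read 5′ to 3′ on the gene's strand. Capitals mark the CACCC box (CACCC or GGGTG) and the GC box (GGGCGG or CCGCCC), the letters that Krüppel-like and Sp factors bind, and in Klf2 also the MEF2 site, CTAAATTTAG, which is known in this promoter.
Klf2, chr8:72318812-72319061, plus strand: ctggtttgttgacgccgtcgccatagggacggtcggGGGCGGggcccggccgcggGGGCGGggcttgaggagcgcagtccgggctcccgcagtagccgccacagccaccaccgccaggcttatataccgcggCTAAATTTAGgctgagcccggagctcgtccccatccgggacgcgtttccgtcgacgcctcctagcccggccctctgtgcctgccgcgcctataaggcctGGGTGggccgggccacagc
Klf13, chr7:63938916-63939165, minus strand: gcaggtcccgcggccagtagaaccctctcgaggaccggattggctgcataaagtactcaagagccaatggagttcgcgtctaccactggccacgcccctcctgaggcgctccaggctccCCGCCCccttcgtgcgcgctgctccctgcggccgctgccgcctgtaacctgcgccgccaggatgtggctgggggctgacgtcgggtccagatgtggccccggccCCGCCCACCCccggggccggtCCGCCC
Smad3, chr9:63757995-63758244, minus strand: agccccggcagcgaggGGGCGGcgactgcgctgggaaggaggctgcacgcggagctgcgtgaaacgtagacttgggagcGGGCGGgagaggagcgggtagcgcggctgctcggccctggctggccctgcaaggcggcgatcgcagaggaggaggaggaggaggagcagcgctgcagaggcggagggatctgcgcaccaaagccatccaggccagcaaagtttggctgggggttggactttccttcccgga
Tgfbr2, chr9:116175364-116175613, minus strand: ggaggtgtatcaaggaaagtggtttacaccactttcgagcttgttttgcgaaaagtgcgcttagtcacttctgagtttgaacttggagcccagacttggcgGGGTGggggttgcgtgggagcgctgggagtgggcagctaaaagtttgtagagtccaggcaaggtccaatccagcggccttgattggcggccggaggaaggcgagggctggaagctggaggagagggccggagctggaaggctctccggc
The Klf2 window held 2 GC boxes, 1 CACCC box 19 bases before the start and the MEF2 site 118 bases before it. The Klf13 window held 3 GC boxes and 1 CACCC box, which overlaps a GC box, and the Smad3 window held 2 GC boxes and no CACCC box. The Tgfbr2 window had no GC box, 1 CACCC box and 1 CAGAC, the core element that Smad3 binds, 160 bases before the start. Among 32851 promoter windows of the same length, searched on both strands and with overlapping matches counted, 52% held a CACCC box, 32.7% a GC box, 42.2% CAGAC and 2.92% a MEF2 site. Windows were found for 9 of the 10 genes, and these matches describe letters only.

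Per length of transcript, the ligand and the receptor that binds it first were the most abundant of the set. Mean levels over the 12 libraries, in CPM per kilobase of exon ± SD, were 13.8 ± 2.23 for Tgfb1, 13.6 ± 4.20 for Tgfbr2, 10.9 ± 2.14 for Klf6, 9.07 ± 1.68 for Tgfbr1 and 8.25 ± 2.11 for Klf13. Klf2 followed at 4.17 ± 3.47, Smad3 at 4.07 ± 1.63, Klf3 at 2.88 ± 0.737, Smad7 at 0.922 ± 0.374 and Klf4 at 0.139 ± 0.198. Neighbours in this order down to Klf3 did not hold their place in every library: Tgfb1 exceeded Tgfbr2 in 8 of 12 libraries, Klf13 exceeded Klf2 in 10, and Klf2 exceeded Smad3 in 4. Klf3 exceeded Smad7, and Smad7 exceeded Klf4, in all 12. Klf2 varied most among the 9 tested genes, with a coefficient of variation of 83.1% over the 12 libraries, and Tgfb1 least, with 16.2%.

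**Figure D1:**
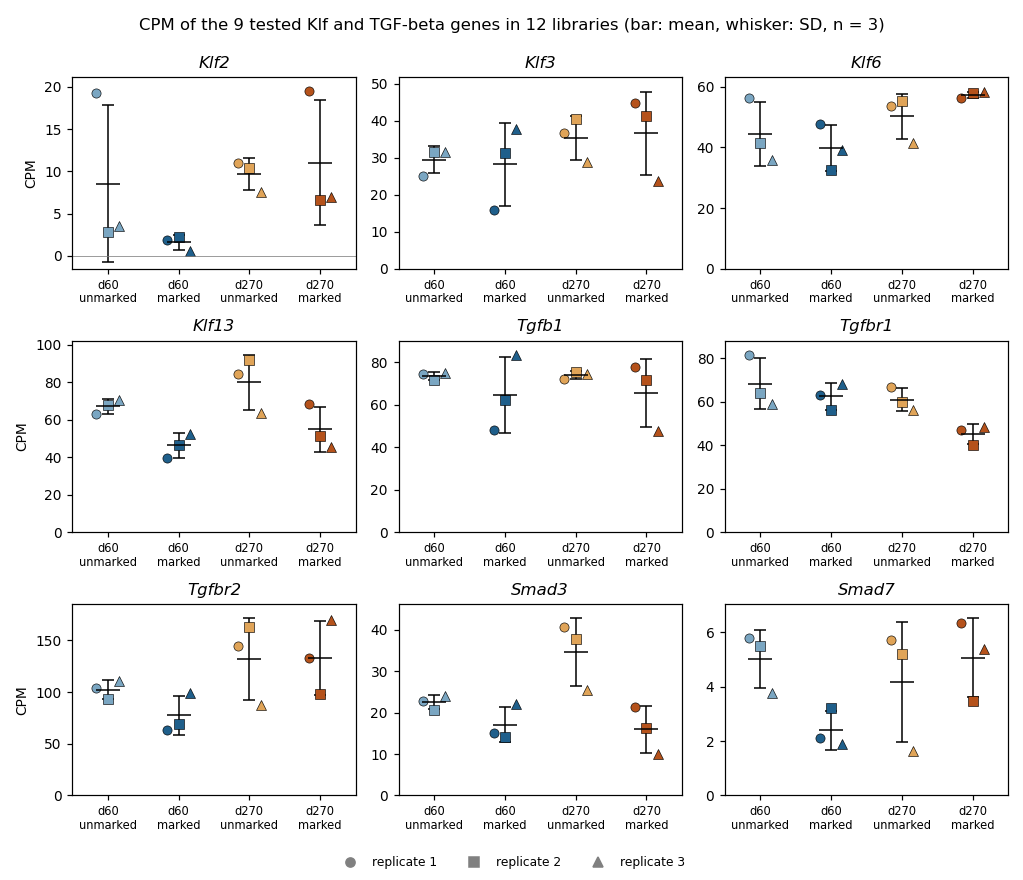
CPM (vertical axis, linear) of the 9 tested genes in each of the 12 libraries, by group (horizontal axis; d60 and d270 are day 60 and day 270). Points are libraries, bars are group means and whiskers are SD (n = 3); Klf2 lies between 0.626 and 2.26 CPM in marked cells of day 60 and between 6.58 and 19.6 CPM in marked cells of day 270.

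Across all 7 comparisons, limma called none of the 9 genes that could be tested at a Benjamini-Hochberg adjusted p under 0.05, and the following differences are given as values with their errors. Between marked and unmarked cells 0 of 9 were called at day 60 (0.189% of all 12704 tested genes were), 0 of 9 at day 270 (0.480% of all) and 0 of 9 in the mean of both days (1.84% of all). Between days 0 of 9 were called in unmarked cells (0% of all), in marked cells (0.0315% of all) and in the mean of both populations (0.189% of all). Unadjusted p was under 0.05 for 2, 3 and 2 of the 9 in the comparisons of marking, against 6.45%, 14.0% and 16.9% of all genes, and for 0, 4 and 4 in the comparisons of days, against 2.98%, 9.64% and 8.53%. For the interaction of marking and day, 0 of 9 were called (0% of all), and unadjusted p was under 0.05 for 0 of 9 (3.05% of all). edgeR called none of the 9 either, and DESeq2 called 2, Klf2 and Tgfbr2 in marked cells between days, where it called 1.01% of all genes. In the authors' deposited table for day 60, marked against unmarked, the lowest FDR among the 10 genes was 0.667, for Klf13.

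Klf2 (ENSMUSG00000055148, GRCm38 chr8:72319033-72321656), which keeps lymphocytes resting and drives the genes they need to leave tissues, had the largest log2 differences of the 9 genes between days in marked cells and between the populations of day 60. Its CPM was 19.3, 2.83 and 3.51 in unmarked cells of day 60 and 1.86, 2.26 and 0.626 in marked cells of that day. At day 270 it was 11.05, 10.4 and 7.52 in unmarked cells and 19.6, 6.58 and 6.92 in marked cells. All 3 marked libraries of day 60 lay below all 9 others, and library 1 of day 60 unmarked and of day 270 marked stood above the other libraries of their groups. These levels rest on 7 to 23 reads per library in marked cells of day 60 and on 33 to 312 elsewhere.

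In marked cells the mean of Klf2 was 1.58 ± 0.852 CPM at day 60 and 11.02 ± 7.40 CPM at day 270 (SD, n = 3), a log2 fold change on log2(CPM + 0.5) of 2.39 (SE 0.66, 95% interval 0.99 to 3.79). This did not pass in limma (adjusted p = 0.283), and DESeq2 called it (log2 fold change 2.65, adjusted p = 0.0410). The groups did not overlap, which held for 4 of the 9 genes in this comparison (Klf2, Klf6 and Smad7 with day 270 higher, Tgfbr1 with day 270 lower) and for 10.5% of all genes. In unmarked cells the means of the days were 8.55 ± 9.32 and 9.65 ± 1.87 CPM, and those groups overlapped.

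Between marked and unmarked cells of day 60, the log2 difference of Klf2 was -1.72 (SE 0.66, limma adjusted p = 0.609). The groups did not overlap, with marked cells lower, as for Klf13 and Smad7, so that 3 of the 9 genes had groups apart, against 15.8% of all genes in either direction. Without unmarked library 1 of day 60 the difference was -0.91, and it was not called. The authors' deposited table gave -1.89 for it, with an FDR of 0.739. At day 270 the marked and unmarked means were 11.02 and 9.65 CPM. The change of the marking difference between days, tested as an interaction in limma, was 1.75 (SE 0.94, adjusted p = 0.9999), and 0.93 without that library. 

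Within its group, the library with the highest Klf2 of day 60 led in summed macrophage, T cell, B cell and plasmacytoid dendritic cell markers. Summed CPM of the 13 monocyte or macrophage markers was 363 there and 119 and 144 in the other unmarked libraries of day 60. That of 5 T or NK cell markers was 14.6 against 5.85 and 6.61, and that of 6 B cell markers 331 against 270 and 245. The sum of 2 plasmacytoid dendritic cell markers was 29.6 against 4.89 and 4.20, all of it from Ccr9. The sum of 9 neutrophil markers was 29.7 against 297 and 22.8. Those of erythroid and megakaryocyte markers, 37.3 and 1.40, were the lowest of the group. Marked library 1 of day 270, with the highest Klf2 of all 12, had the lowest macrophage sum of its group, 365. In marked cells the macrophage sum was 178 to 305 at day 60 and 365 to 842 at day 270, and the T or NK sum was 1.97 to 5.83 and 4.83 to 6.82. Cd3g, part of the T cell receptor complex, was read in every library, while Cd3d and Gzma were at 0 in all marked libraries of day 60 and Gzma and Nkg7 in all marked ones of day 270. Nkg7 had 18 reads over the marked libraries of day 60, and Cd3d had 30 over those of day 270. Trac had 48 reads in marked and 10 in unmarked cells of day 60, and 17 and 43 at day 270. The part of these markers in the Klf2 values was not tested.

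Klf13 (ENSMUSG00000052040, chr7:63886351-63938915), a repressor that also drives late cytokine genes in T cells, was lower in marked cells by the same amount on both days. Its CPM was 62.8, 67.8 and 70.8 in unmarked and 39.7, 46.5 and 52.6 in marked cells of day 60, and 84.6, 91.8 and 63.5 against 68.6, 51.1 and 45.2 at day 270. Every marked library was below its unmarked partner, and at day 60 the groups did not overlap. The log2 difference was -0.54 on each day (SE 0.22) and -0.54 in the mean of both (SE 0.15, limma adjusted p = 0.0865, lower in 6 of 6 pairs). Without marked library 1 of day 270 that mean difference passed the threshold (-0.62, adjusted p = 0.0345). That library had the highest Klf13 of its group, so leaving it out could only enlarge the difference, and nothing is read from this call.

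Klf6 (ENSMUSG00000000078, chr13:5861482-5870394), a broadly expressed factor induced early after stimulation, was steadiest in the marked cells of day 270. Its CPM there was 56.2, 57.7 and 58.1, against 53.8, 55.1 and 41.6 in unmarked cells of that day. In day 60 cells it was 56.2, 41.6 and 35.7 unmarked and 47.7, 32.5 and 39.1 marked. All marked libraries of day 270 exceeded all marked libraries of day 60, with a log2 difference of 0.54 (SE 0.23, limma adjusted p = 0.478). They also exceeded the unmarked ones of day 270, by a log2 difference of 0.20 (SE 0.23, limma adjusted p = 0.724); the lowest marked value there was 56.2 and the highest unmarked one 55.1.

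Klf3 (ENSMUSG00000029178, chr5:64803388-64832901), a repressor that works with CtBP, ranged from 15.9 to 44.8 CPM, and its 4 groups overlapped, with means of 29.5 ± 3.74, 28.3 ± 11.2, 35.3 ± 5.91 and 36.6 ± 11.2 CPM (SD, n = 3) in day 60 unmarked, day 60 marked, day 270 unmarked and day 270 marked cells. Klf4 (ENSMUSG00000003032, chr4:55527143-55532466), an inhibitor of B cell proliferation and a pluripotency factor, was close to absent. It had 39 reads over the 3 unmarked libraries of day 60, 15 over the marked ones, 8 over the unmarked ones of day 270 and 0 over the marked ones. It was at 0 in 7 libraries, which allows up to 0.188 to 0.403 CPM (3 reads, depending on the library, counting error only), did not pass the filter on low counts and was not tested. Its highest level was 1.76 CPM, in unmarked library 1 of day 60, where Klf2 and the macrophage markers were also at the group's highest.

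**Figure D2:**
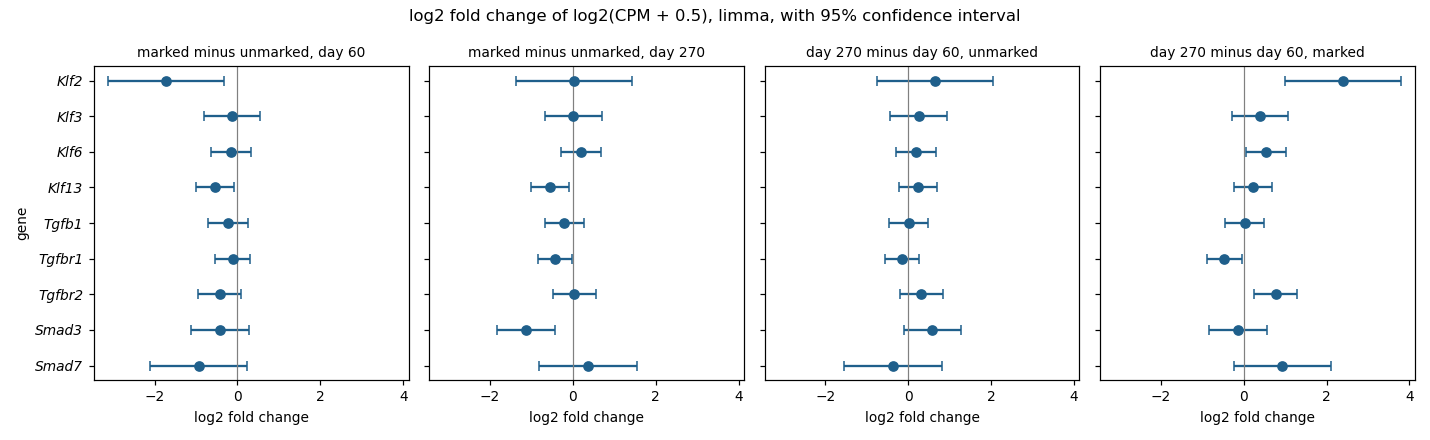
Log2 fold changes (horizontal axis, of log2(CPM + 0.5)) of the 9 tested genes (vertical axis) in 4 comparisons, with the limma estimate as a point and its 95% confidence interval as a bar. The interval of Klf2 between days in marked cells runs from 0.99 to 3.79, and that of Smad3 between marked and unmarked cells of day 270 from -1.83 to -0.44.

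The ligand gene Tgfb1 (ENSMUSG00000002603, chr7:25687002-25705077) differed little between group means. It stood at 74.5, 71.4 and 74.9 CPM in unmarked and 48.0, 62.2 and 83.5 CPM in marked cells of day 60, and at 71.9, 75.5 and 74.5 against 77.5, 71.4 and 47.5 at day 270. The 6 unmarked libraries lay within 71.4 to 75.5 CPM, and the 6 marked ones were spread on both sides of them. In the mean of both days the 95% interval of its log2 difference, marked minus unmarked, ran from -0.55 to 0.12.

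Between the days, the means of the 2 receptor genes in marked cells differed in opposite directions. Tgfbr2 (ENSMUSG00000032440, chr9:116084293-116175360), the receptor that binds the ligand, was at 104, 93.0 and 111 CPM in unmarked and 63.7, 69.4 and 99.3 CPM in marked cells of day 60. At day 270 it was at 145, 163 and 87.4 CPM in unmarked and 133, 98.1 and 170 CPM in marked cells. In marked cells the means were 77.4 ± 19.1 and 133 ± 35.8 CPM, and the groups overlapped by 1 library, since the lowest value of day 270 was below the highest of day 60. The log2 difference was 0.77 (SE 0.25, 95% interval 0.25 to 1.29, limma adjusted p = 0.334), and DESeq2 called it (0.70, adjusted p = 0.0387). In the mean of both populations it was 0.55 (SE 0.18, limma adjusted p = 0.307). The highest Tgfbr2 value came from marked library 3 of day 270, which also had the highest macrophage marker sum, 842 CPM. In marked libraries 1 and 2 of that day the sum was 365 and 522 CPM, beside Tgfbr2 at 133 and 98.1 CPM. In unmarked libraries 1, 2 and 3 of day 270 it was 214, 446 and 392 CPM, beside Tgfbr2 at 145, 163 and 87.4 CPM. The part of such cells in the Tgfbr2 values was not tested.

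Tgfbr1 (ENSMUSG00000007613, chr4:47353222-47414931), the kinase that passes the signal on, was lowest in the marked cells of day 270. Its CPM was 81.6, 64.1 and 59.2 in unmarked and 62.9, 56.3 and 68.4 in marked cells of day 60, and 66.7, 60.0 and 56.3 against 47.1, 40.0 and 48.4 at day 270. The 3 marked libraries of day 270 lay below all 9 others. The log2 difference was -0.43 against unmarked cells of that day (SE 0.20, limma adjusted p = 0.346) and -0.47 against marked cells of day 60 (SE 0.20, limma adjusted p = 0.478). At day 270 the marked and unmarked groups did not overlap for 3 of the 9 genes, Tgfbr1 and Smad3 lower and Klf6 higher in marked cells, and for 15.2% of all genes.

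Within each library, the ratio of Tgfbr2 to Tgfbr1, per length, does not depend on how that library is scaled. It was 1.01, 1.16 and 1.49 in unmarked and 0.807, 0.984 and 1.16 in marked cells of day 60. At day 270 it was 1.73, 2.17 and 1.24 in unmarked and 2.25, 1.96 and 2.80 in marked cells, so that all marked libraries of day 270 lay above all 6 libraries of day 60. This ratio was chosen after its values were seen and has no test.

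Smad3 (ENSMUSG00000032402, chr9:63646767-63757994), the transducer that Tgfbr1 phosphorylates, had a lower mean CPM in marked than in unmarked cells on both days. Its CPM was 22.8, 20.7 and 24.1 in unmarked and 15.0, 14.2 and 22.0 in marked cells of day 60. At day 270 it was 40.7, 37.8 and 25.4 in unmarked and 21.5, 16.4 and 9.96 in marked cells, and these groups did not overlap. The log2 difference of day 270 was -1.13 (SE 0.33, 95% interval -1.83 to -0.44, limma adjusted p = 0.148), and that in the mean of both days -0.77 (SE 0.23, limma adjusted p = 0.111, lower in 6 of 6 pairs). Without marked library 1 of day 270, both passed the threshold, at -1.37 (adjusted p = 0.0391) and -0.89 (adjusted p = 0.0443). That library had the highest Smad3 of its group, so leaving it out could only enlarge both differences, and nothing is read from these calls. The unmarked libraries of day 270 were all above those of day 60, with a log2 difference of 0.58 (SE 0.33, limma adjusted p = 1); Smad3 was the 1 gene of the 9 whose groups were apart in this comparison, against 12.8% of all genes. The interaction was -0.72 (SE 0.47, limma adjusted p = 0.9999), so a larger marking difference at day 270 than at day 60 was not shown.

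Smad7 (ENSMUSG00000025880, chr18:75367529-75395935), the inhibitor of the pathway, was read at 1.64 to 6.34 CPM. It stood at 5.79, 5.49 and 3.78 CPM in unmarked and 2.10, 3.21 and 1.88 CPM in marked cells of day 60, which did not overlap (log2 difference -0.94, SE 0.56, limma adjusted p = 0.864). At day 270 it was 5.71, 5.20 and 1.64 CPM in unmarked and 6.34, 3.49 and 5.41 CPM in marked cells. Marked cells of day 270 lay above those of day 60 in every library (0.94, SE 0.56, limma adjusted p = 0.618), on 21 to 101 reads per library. The interaction was 1.30 (SE 0.79, limma adjusted p = 0.9999), and 0.81 without unmarked library 3 of day 270. The ratio of Smad7 to Smad3 per length, chosen after its values were seen and with no test, was 0.362, 0.261 and 0.666 in marked cells of day 270, against 0.172, 0.168 and 0.0791 in unmarked cells of that day and 0.105 to 0.326 over the 6 libraries of day 60.

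**Figure D3:**
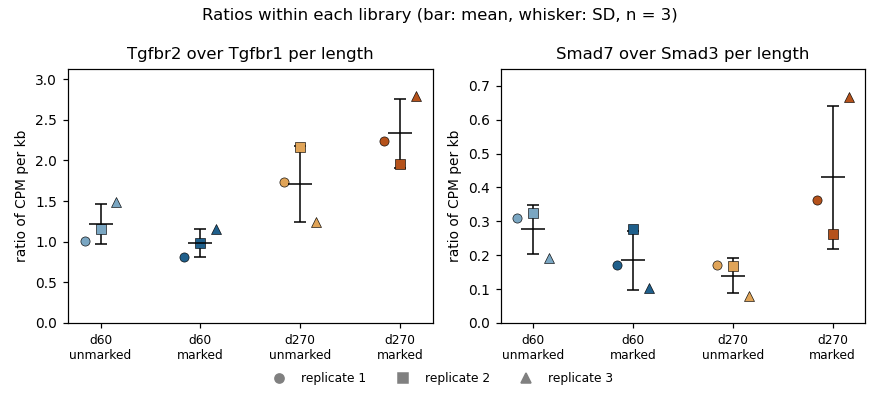
Ratio within each library (vertical axis, ratio of CPM per kilobase) of Tgfbr2 to Tgfbr1 (left) and of Smad7 to Smad3 (right), by group (horizontal axis). Points are libraries, bars are means and whiskers SD (n = 3); in marked cells of day 270 the receptor ratio is 1.96 to 2.80, against 0.807 to 1.16 in marked cells of day 60.

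As a description of the set, the log2 differences of the 9 genes between marked and unmarked cells of day 60 had a median of -0.42, and all 9 were below 0, beside a median of -0.13 over all tested genes, of which 8124 of 12704 were below 0. The number below 0 was 8 of 9 under TMM scaling (median -0.29), 8 of 9 in DESeq2 and 7 of 9 in edgeR, and the authors' deposited table gave values above 0 for Klf6 and Tgfbr1. At day 270 the median of the 9 was 0.01 with 4 below 0, beside -0.22 over all genes. Between days in marked cells it was 0.40 with 7 above 0, beside 0.02 over all genes, and 6 above 0 under TMM scaling, in edgeR and in DESeq2. TMM scaling moved the median of all genes up by 0.12 in the comparison of day 60 and down by 0.11 in comparisons of days.

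The wider families held few called genes. Of 11 other Krüppel-like and Sp factor genes tested, 0 were called in any of the 7 comparisons by limma. In the comparisons of marking, 1, 2 and 2 of the 11 had an unadjusted p under 0.05 at day 60, at day 270 and in the mean of both days, against 6.45%, 14.0% and 16.9% of all genes. At an adjusted p under 0.05, limma also called 0 of 8 tested genes of TGF-beta ligands, latency and activation. It called 0 of 7 other receptors of the family, 0 of 4 other Smads and 0 of 20 Smad regulators, in any of the 7 comparisons. edgeR called none of these genes either. DESeq2 called 4, each in 1 comparison: Klf12 between marked and unmarked cells of day 270 (2.02% of all genes were called there), Sp3 (adjusted p = 0.0359) and the BMP receptor gene Bmpr2 (0.0456) in the mean of both days (4.28% of all), and Itgav (0.0110) between days in the mean of both populations (1.12% of all). Klf12, a repressor, passed the filter on low counts only through 3 unmarked libraries, so nothing is read from its call. It had 8, 21 and 22 reads in unmarked cells of day 270 (0.736 to 2.02 CPM) and 0 in all 3 marked libraries, which allows up to 0.188 to 0.403 CPM there. Sp3, which shares the GC box with the Krüppel-like factors, was at 109 ± 19.2 and 72.0 ± 14.9 CPM in unmarked and marked cells of day 60 and at 113 ± 18.0 and 82.6 ± 15.8 CPM at day 270 (SD, n = 3). Median log2 differences between marked and unmarked cells of day 270 were -0.19 for the other factors, -0.03 for ligands and activation, -0.23 for the receptors, -0.56 for the other Smads and -0.31 for the regulators, beside -0.22 over all genes. In that comparison 4 of 4 other Smads and 19 of 20 regulators were below 0, as were 8790 of all 12704 genes.

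Of 13 tested TGF-beta target genes, some of them also in the lists above, 1 was called, at day 270 (0.480% of all genes) and in the mean of both days (1.84% of all). At day 270 the median log2 difference of the 13 was 0.03, with 7 above 0 and 6 below, beside -0.22 over all genes. In the mean of both days 4 were above 0 and 9 below, with a median of -0.08 beside -0.18. Myc, the gene of a growth-promoting transcription factor that TGF-beta represses in many cells, was lower in marked cells of day 270, where it stood at 1.82, 1.88 and 5.63 CPM against 19.2, 17.9 and 16.7 CPM in unmarked cells. At day 60 it was 7.20, 3.93 and 8.22 CPM in marked and 16.3, 15.5 and 8.05 CPM in unmarked cells, and those groups overlapped. The log2 difference was -2.51 at day 270 (SE 0.49, limma adjusted p = 0.0295) and -1.75 in the mean of both days (SE 0.35, limma adjusted p = 0.0130, lower in 5 of 6 pairs). The call of day 270 was lost with a replicate block (adjusted p = 0.0658), with only its 2 groups in the fit (0.281) and without any 1 of the unmarked libraries of day 270 (0.128 to 0.183). That of both days was lost without unmarked library 1 or 2 of day 60 (0.0571 and 0.0527) or unmarked library 1 of day 270 (0.0620).

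Of 9 genes tied to Klf2 in lymphocytes, limma called 1 in the comparison of day 270 (0.480% of all genes) and 3 in the mean of both days (1.84% of all), all lower in marked cells, as were 55 of the 61 and 191 of the 234 genes called in the whole table. Of the 9 log2 differences, 5 were below 0 and 4 above at day 270, and likewise in the mean of both days. Of all 12704 genes, 8790 and 8939 were below 0. S1pr1, the receptor for the egress signal sphingosine 1-phosphate and a direct Klf2 target, stood at 8.43, 6.95 and 3.51 CPM in unmarked and 1.29, 0.595 and 0 CPM in marked cells of day 60. At day 270 it was 5.52, 4.72 and 7.08 CPM in unmarked and 1.19, 3.22 and 0 CPM in marked cells; a library at 0 allows up to 0.268 CPM at day 60 and 0.325 CPM at day 270. No marked library reached the lowest unmarked one of its day, and over both days S1pr1 fell by 2.39 on the log2 scale (SE 0.52, limma adjusted p = 0.0207, lower in 6 of 6 pairs). The call was lost in edgeR (adjusted p = 0.205), in DESeq2 (0.0584) and without 1 of 7 libraries (0.0511 to 0.0762): unmarked 1 or 2 and marked 2 or 3 of day 60, or any unmarked one of day 270.

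S1pr4, a related receptor, was at 26.5, 22.8 and 30.3 CPM in unmarked and 9.22, 13.1 and 10.8 CPM in marked cells of day 60, and at 25.7, 19.9 and 14.1 against 14.0, 10.1 and 11.9 CPM at day 270. It fell by 0.95 over both days (SE 0.24, limma adjusted p = 0.0445, lower in 6 of 6 pairs). That call was lost under TMM scaling (0.0533), in edgeR (0.0513), with a replicate block (0.0921), without the marked libraries numbered 2 (0.0545) and without any library of day 60 or unmarked library 1 or 2 of day 270 (0.0728 to 0.179).

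Cxcr3, a chemokine receptor of antibody-secreting cells and T cells, was at 33.8, 37.3 and 36.4 CPM in unmarked and 3.56, 3.33 and 4.20 CPM in marked cells of day 60, and at 32.3, 9.53 and 24.7 against 0.878, 4.97 and 0 CPM at day 270. It fell by 3.41 over both days (SE 0.47, limma adjusted p = 7.08e-04, lower in 6 of 6 pairs), with an adjusted p of at most 0.00556 under the alternatives. At day 270 alone it fell by 3.70 (limma adjusted p = 0.0176), a call lost in edgeR (0.0959), in DESeq2 (0.111), with only its 2 groups in the fit (0.301) and without unmarked library 1 or 3 of that day (0.165 and 0.118). The other 6 genes were not called by limma. Among them, the homing integrin gene Itgb7 was at 184 ± 59.1 and 113 ± 24.8 CPM in unmarked and marked cells of day 60 and at 281 ± 17.8 and 195 ± 52.6 CPM at day 270 (SD, n = 3), with a limma adjusted p of 0.0673 over both days and 0.0327 in DESeq2.

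At day 270 the mean of Klf2 was not lower in marked cells, unlike those of S1pr1 and S1pr4. By pairs, Klf2 was lower in the marked library in 2 of 3 and higher in 1, where marked library 1 stood at 19.6 CPM. Its marked and unmarked means were then 11.02 ± 7.40 and 9.65 ± 1.87 CPM, while those of S1pr1 were 1.47 ± 1.63 and 5.77 ± 1.20 CPM and those of S1pr4 12.01 ± 1.99 and 19.9 ± 5.80 CPM (SD, n = 3). At day 60 all 3 genes had the lower mean in marked cells. Whether these genes differ from Klf2 in their marking difference at day 270 was not tested.

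**Figure D4:**
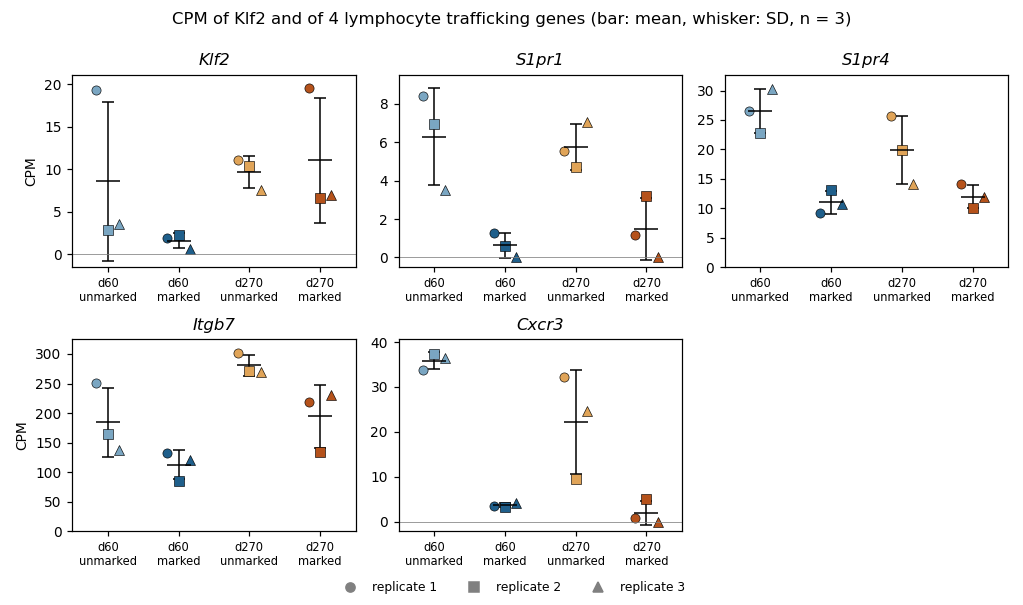
CPM (vertical axis, linear) of Klf2 and of 4 trafficking receptor genes tied to it in lymphocytes, in each of the 12 libraries by group (horizontal axis). Points are libraries, bars are means and whiskers SD (n = 3); S1pr1 and Cxcr3 are lower in every marked library than in every unmarked library of the same day, while Klf2 groups overlap at day 270.

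The genes with the profile most like that of Klf2 were found by the root-mean-square difference between standardised log2(CPM + 0.5) profiles over the 12 libraries, among 12703 genes. They were Tnfrsf1b, a TNF receptor gene (0.467), Scd1, a fatty acid desaturase gene (0.480), and Cd3g (0.532). Tnfrsf1b stood at 11.6 to 13.8 CPM in marked cells of day 60, below the 15.2 to 35.1 CPM of the other 9 libraries, and like Klf2 it was highest of day 60 in unmarked library 1. For Tgfbr2 they were Usp24 (0.300), Phf1 (0.323) and Smg1 (0.331). Within the set, the closest pair was Klf13 and Smad3, at 0.462, and the nearest gene to Klf2 was Klf6, at 0.769. Tgfbr1 had no near neighbour in the set, its smallest difference being 1.07, to Smad3. The libraries share their depth and scaling across genes, so these values carry no test.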

How the data were processed

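Bone marrow plasma cell RNA was sequenced in 12 libraries; per the labels' protocols, RNeasy Micro kits served for the RNA and a TruSeq RNA kit for the libraries. limma and GRCm38 are named in the submitters' processing notes; no source used here names the aligner, the counter or the annotation. Per the file headers, the authors' table of 14219 genes gives CPM per library, with the authors' log2 fold change, p-value and FDR for day 60. Its CPM values were turned back into whole reads with 1 total per library: of 151331 values below 1000 reads, 100% came within 0.05 of whole numbers, and they matched the whole counts that the authors deposited for 230 genes. Another deposited table, of 265 genes, holds none of the 10 genes.

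The table is in CPM, so limma 3.58.1 (R 4.3.3) with a trended prior was fitted to log2(CPM + 0.5) of all 12 libraries, with 1 coefficient per group and 8 residual degrees of freedom, for the 12704 genes that passed filterByExpr of edgeR 4.0.16 (minimum count 10 in recovered reads). Tests were two-sided and p-values adjusted by Benjamini-Hochberg over all 12704, with a threshold of 0.05. The steps were tested on simulated data. The fold change on log2(CPM + 0.5) understates differences of low genes. Alternatives were a pseudocount of 2, no filter, TMM scaling, edgeR and DESeq2 1.42.0 on the recovered reads, a replicate block, only the groups compared, and leaving out libraries.

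The 10 genes, the wider lists and the comparisons were chosen with earlier results of these data known. All 10 are described whatever their values; genes of the wider lists are described where called in any comparison, and for Klf2 and Tgfbr2 the 3 nearest profiles. Itgb7, the genes that DESeq2 alone called, the markers and the ratios were named after their values were seen. Gene positions and exon lengths are from GENCODE M21 (GRCm38), promoters from RefSeq. Labels give a marked and an unmarked library of a day the same specimen number, which no source ties to an animal. Residuals of such pairs correlated by a median of 0.0556 (range -0.0109 to 0.115, 6 pairs). For marked and unmarked libraries of the same day with different specimen numbers the median was -0.0194 (range -0.104 to 0.0301, 12 pairs). The block was kept as an alternative because no source ties the number to an animal. Among replicates 2 and 3, all unmarked libraries are numbered before all marked ones, so the order of libraries cannot be told apart from marking in them.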

Additional observations from a re-analysis of the deposited data

How the results depend on the processing

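Of the 9 tested genes, the number called stayed at 0 in the 7 comparisons under every alternative run, with 3 exceptions. DESeq2 called 2 between days in marked cells. Leaving out each library in turn gave 0 to 1 called at day 270 and 0 to 2 in the mean of both days, with the highest counts without marked library 1 of day 270. The cause of these differences was not tested. With a replicate block (specimen number, or replicate number between days), 0 of the 9 genes were called in each comparison, as without it; the block ended the calls of S1pr4 and of Myc at day 270 and no other call named here. Of 1008 values of the 9 genes under the alternatives, 65 changed sign, none of them with a size above 0.37 in the fit reported; 26 were of Tgfb1 and 14 of Klf3. DESeq2 gave smaller differences at day 270 for Klf13 (-0.36) and Tgfbr1 (-0.28), and edgeR for Klf6 between days (0.23). The Klf6 difference of day 270 was 0.32 under TMM scaling and 0.07 without unmarked library 3 of that day, and the Smad3 interaction was -0.42 without marked library 3 of day 270. Counts over all genes moved more: 24 at day 60 (3 to 119 over the alternatives), 61 at day 270 (0 to 482), 234 in the mean of both days (97 to 544), 0 between days in unmarked cells (0 to 11), 4 in marked cells (0 to 161), 24 in their mean (3 to 142) and 0 for the interaction (0 to 5). A fit with only the groups compared was not run for means and interaction, nor one without marked libraries numbered 2 for unmarked cells between days, which hold none. Depth limits Klf4 and the Klf2 levels in marked cells of day 60, which rest on 49 reads in all.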
